A study of Mus musculus with 90 samples.

Results

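The transcripts of the subcortical maternal complex, a protein assembly under the cortex of the mouse egg, were followed from the unfertilised oocyte to the 8-cell embryo with and without maternal Plag1. Its 7 genes, chosen by symbol as the known parts of the complex, were Nlrp5, Ooep, Tle6, Khdc3, Zbed3, Nlrp2 and Padi6. All 7 were among the 24422 genes of the count table, and all 7 were among the 16511 genes that passed a filter of at least 1 CPM (gene counts divided by the library total and rescaled to a common size) in at least 5 libraries.

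Each library held 1 whole oocyte or embryo, sequenced from the 5′ ends of its transcripts with molecular identifiers, beside 92 spike-in RNAs. Metaphase II (MII) oocytes were picked from unmated females 21 to 23 h after human chorionic gonadotropin, 2-cell (2c) embryos 45 to 47 h and 8-cell (8c) embryos 71 to 73 h after fertilisation. All donors were sexually mature CD-1 mice of a Plag1 knockout colony, superovulated with 5 IU of pregnant mare serum and 5 IU of chorionic gonadotropin. WT oocytes came from wild-type females and KO oocytes from Plag1 knockout females. All 2c and 8c embryos were sired by wild-type studs and cultured in KSOM medium, so a KO embryo lacked Plag1 from its mother but carried a wild-type paternal allele. After shallow libraries were left out, 78 of 90 remained. They were 16 WT and 14 KO oocytes, 11 WT and 11 KO 2c embryos, and 15 WT and 11 KO 8c embryos. The labels name no donor female, so libraries of a group may share a mother, and p-values measure the spread between libraries.

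The egg stores transcripts and proteins made while it grows, and the embryo lives on them until its own genome is switched on, in mice at the 2-cell stage. The stored transcripts are then cleared, while the proteins of the subcortical maternal complex stay in the outer cytoplasm of the blastomeres for several divisions. Females without Nlrp5, Ooep or Tle6 ovulate eggs whose embryos stop in early cleavage. NLRP5 (MATER) and NLRP2 are NOD-like receptor family proteins. OOEP (FLOPED) and KHDC3 (FILIA) carry KH-type domains, and TLE6 belongs to the Groucho family of transcriptional co-repressors. ZBED3 is a BED zinc-finger protein known as an Axin partner in Wnt signalling. PADI6 is the egg's own member of the peptidylarginine deiminase family and is needed for the cytoplasmic lattices, the fibres that store ribosomes and proteins.

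The genes lie apart in the mm9 build, with Nlrp5 and Nlrp2 both on chromosome 7 and Ooep and Khdc3 both on chromosome 9. On the forward strand are Nlrp5 (chr7:24170908-24226942), Khdc3 (chr9:72950205-72952250, annotated there as 2410004A20Rik) and Zbed3 (chr13:96093560-96107797). On the reverse strand are Ooep (chr9:78224710-78226395), Tle6 (chr10:81053650-81063645), Nlrp2 (chr7:5250149-5302637) and Padi6 (chr4:140283270-140298558). Zbed3 holds the small nucleolar RNA gene Snora47 on its own strand, and the predicted gene Gm5065 overlaps Nlrp2 on the other strand. Nlrp5 shared 8.26% of its 50-base exon words with Vmn1r90, and Khdc3 shared 5.43% with the overlapping Gm20509, so counts of these genes could be divided between the names.

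Because the reads come from 5′ ends, the 300 bases around each annotated start (250 before it) were searched for motifs on both strands. Oocyte genes are often described as bound by FIGLA, a basic helix-loop-helix factor of E-boxes (CANNTG), and by the homeodomain factor NOBOX, which is known to bind TAATTG. An E-box was present in 6 of the 7 windows, all but that of Nlrp2, against 69.2% of the 24320 promoters of the table. TAATTG was present in 2 of the 7, Ooep and Padi6, against 6.78% of promoters. The E-box CACGTG, a subset of CANNTG, was present only in Tle6, there at 2 places, against 7.8%. The PLAG1 consensus was present in Tle6, Khdc3 and Padi6, against 22.3%. These are matches of letters, not sites, and binding was not measured. The 4 windows shown are those of Padi6, the member that differed between genotypes in oocytes, Ooep, which shares its TAATTG, Tle6 with its 2 CACGTG, and Khdc3, whose course over the stages differed from that of the others. Capitals mark CANNTG and TAATTG (or its complement CAATTA). All are read 5′ to 3′ on the gene's strand from mm9, Padi6 at chr4:140298509-140298808 (reverse), Ooep at chr9:78226346-78226645 (reverse), Tle6 at chr10:81063596-81063895 (reverse) and Khdc3 at chr9:72949955-72950254 (forward).
Padi6: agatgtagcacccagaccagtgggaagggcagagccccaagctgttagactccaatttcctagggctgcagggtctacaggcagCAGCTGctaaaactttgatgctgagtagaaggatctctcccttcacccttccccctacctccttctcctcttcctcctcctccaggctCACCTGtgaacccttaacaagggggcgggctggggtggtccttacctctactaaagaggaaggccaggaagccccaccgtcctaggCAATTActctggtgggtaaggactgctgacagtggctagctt
Ooep: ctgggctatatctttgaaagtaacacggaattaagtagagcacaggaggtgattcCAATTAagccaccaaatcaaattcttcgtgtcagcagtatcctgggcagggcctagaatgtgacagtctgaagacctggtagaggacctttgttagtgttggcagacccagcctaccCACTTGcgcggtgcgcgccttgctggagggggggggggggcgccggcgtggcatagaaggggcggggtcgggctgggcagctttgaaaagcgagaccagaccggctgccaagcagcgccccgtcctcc
Tle6: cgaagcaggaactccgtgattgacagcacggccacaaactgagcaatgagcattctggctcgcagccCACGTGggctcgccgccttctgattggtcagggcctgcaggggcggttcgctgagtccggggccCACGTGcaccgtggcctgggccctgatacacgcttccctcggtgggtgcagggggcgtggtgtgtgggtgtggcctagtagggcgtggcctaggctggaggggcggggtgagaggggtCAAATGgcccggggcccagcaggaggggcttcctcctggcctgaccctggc
Khdc3: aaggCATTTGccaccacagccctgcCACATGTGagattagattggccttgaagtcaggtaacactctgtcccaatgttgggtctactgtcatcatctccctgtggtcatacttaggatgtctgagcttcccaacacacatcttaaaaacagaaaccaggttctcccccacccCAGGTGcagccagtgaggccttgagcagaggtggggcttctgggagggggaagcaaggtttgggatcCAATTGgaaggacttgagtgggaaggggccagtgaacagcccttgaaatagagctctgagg
In Padi6 TAATTG began 9 bases after the annotated start, and in Ooep it began at -195. The CACGTG of Tle6 began at -183 and -119.

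Library depth differed by stage. Kept oocytes had 222357 to 2502421 gene counts, 2c embryos 92475 to 256529, and 8c embryos 214053 to 696870, with 6645 to 15428 spike-in counts in each kept library. Plag1 was counted in 16 of 16 WT oocytes (326 counts in all) and in 3 of 14 KO oocytes (4 counts). At 2c it was counted in 1 of 11 WT and 9 of 11 KO embryos, and at 8c in 5 of 15 WT and 4 of 11 KO embryos, where the paternal allele makes the count no check of the label. The summed level of 10 oocyte marker genes (among them Zp1 to Zp3, Gdf9 and H1foo) was 6297 to 36192 CPM in oocytes and 22.0 to 596 CPM at 8c. Of 12 cumulus cell markers, 3 had a count in WT oocytes and 4 in KO oocytes, with a summed level of at most 6.79 CPM. At 2c their sum reached 32.6 CPM in WT and 43.1 CPM in KO.

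In oocytes the 7 genes together held 0.653 to 1.73% of all gene counts in WT (median 0.831%) and 0.786 to 2.79% in KO (median 1.18%). At 2c the medians were 0.188% in WT and 0.445% in KO, and at 8c 0.0145% and 0.0169%. Zbed3 alone gave a median of 69.5% of the members' counts in WT oocytes and 52.5% in KO oocytes. The members were thus represented by very unequal numbers of counts.

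Counted as 5′ ends, which are 1 per transcript, the order of the median levels in WT oocytes was Zbed3 (5380 CPM), Padi6 (1035 CPM), Ooep (639 CPM), Nlrp5 (252 CPM), Tle6 (161 CPM), Nlrp2 (52.8 CPM) and Khdc3 (7.49 CPM). Zbed3 stood above Padi6 in 16 of 16 libraries with no overlap of the ranges, and Nlrp2 above Khdc3 in 16 of 16. The neighbours in between did not separate. Padi6 was above Ooep in 11 of 16 libraries, Ooep above Nlrp5 in 10, Nlrp5 above Tle6 in 11 and Tle6 above Nlrp2 in 10. Per kilobase of the longest annotated transcript, a scaling that 5′-end counts do not call for, Tle6 (79.9 CPM per kb) passed Nlrp5 (70.1 CPM per kb). On that scale Nlrp5 was lower in 9 of 16 libraries, and the rest of the order was kept.

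In KO oocytes the medians were 4333 CPM for Zbed3, 2080 CPM for Padi6, 1816 CPM for Ooep, 440 CPM for Tle6, 305 CPM for Nlrp5, 53.7 CPM for Nlrp2 and 7.39 CPM for Khdc3. Zbed3 was above Padi6 there in 10 of 14 libraries. By 8c the order had turned over, with Padi6 (56.7 CPM), Khdc3 (54.5 CPM) and Zbed3 (50.3 CPM) at the top in WT and none of these neighbours apart from each other. Khdc3, the least counted member of the oocyte, was thus among the 3 most counted members at 8c.

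**Figure D1:**
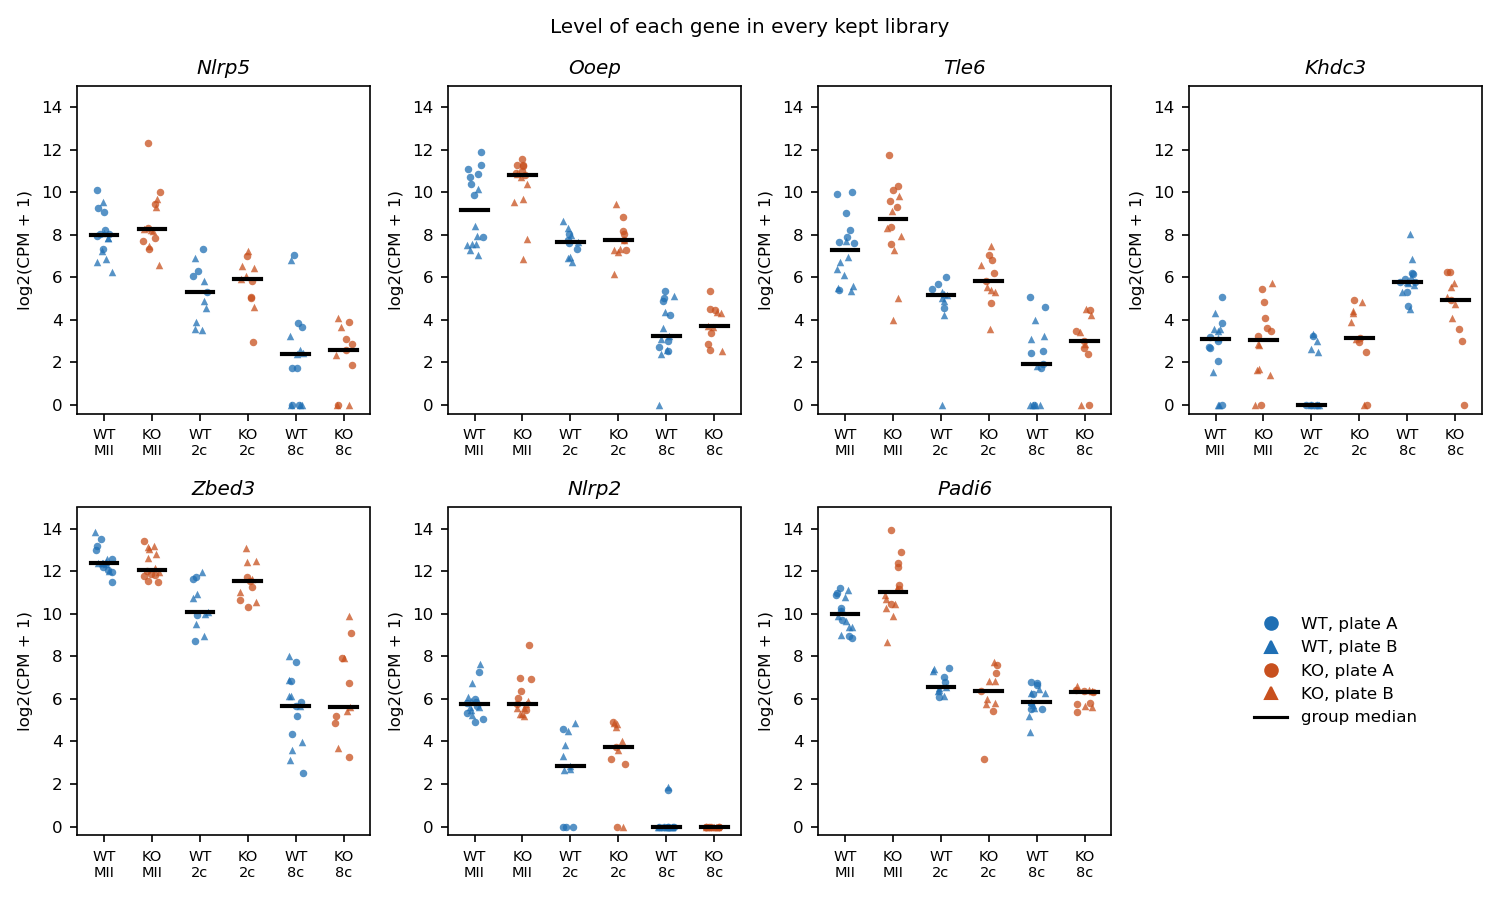
Level of each of the 7 genes in the 78 kept libraries, as log2(CPM + 1), by genotype and stage. Points are single oocytes or embryos (circles plate A, triangles plate B, WT blue, KO orange) and bars are group medians. Zbed3 starts highest, Khdc3 is the gene that stands higher at 8c than in oocytes, and Nlrp2 has 0 counts in all 11 KO 8c embryos.

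From MII to 2c all 7 genes fell in both genotypes when libraries were scaled by their spike-in counts. Of all genes tested, 51.3% were called lower in WT and 50.3% in KO (edgeR adjusted p under 0.05). The median log2 change of all genes was -1.46 in WT and -1.42 in KO, and that of the members was -4.17 and -4.43. On gene-count (TMM) scaling the medians of all genes were -0.03 and 0.14.

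Padi6 lay between 10.4 and 421 counts per 1000 spike-in counts in WT oocytes (median 43.2), and between 1.19 and 4.19 in WT 2c embryos (median 1.82). In KO it went from 18.9 to 919 (median 237) to 0.120 to 5.59 (median 1.88). The ranges of the stages did not overlap in either genotype. The log2 change was -5.28 (SE 0.53, edgeR adjusted p = 9.75e-15) in WT and -6.92 (SE 0.57, edgeR adjusted p = 2.35e-18) in KO. The fall of Padi6 in KO stood at the 0.0727 percentile of all genes.

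Tle6 had 0.919 to 213 counts per 1000 spike-in counts in WT oocytes (median 6.20) and 0 to 1.11 in WT 2c embryos (median 0.658). In KO oocytes it had 0.688 to 312 (median 36.7), and in KO 2c embryos 0.204 to 4.83 (median 1.19). Its lowest oocytes overlapped the 2c embryos in both genotypes. The log2 change was -5.39 (SE 0.80) in WT and -5.20 (SE 0.79) in KO, both called.

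Nlrp5 had 2.91 to 244 counts per 1000 spike-in counts in WT oocytes (median 12.8) and 0.206 to 2.83 in WT 2c embryos (median 0.778). In KO it had 4.33 to 298 (median 25.5) and then 0.107 to 3.92 (median 1.35). The stages did not overlap in either genotype, and the log2 change was -4.74 (SE 0.77) in WT and -5.15 (SE 0.79) in KO.

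Ooep had 4.00 to 209 counts per 1000 spike-in counts in WT oocytes (median 24.1) and 2.15 to 6.49 in WT 2c embryos (median 4.03). In KO it had 5.08 to 225 (median 142) and then 1.33 to 19.4 (median 4.17). Most oocytes, 12 of 16 in WT and 12 of 14 in KO, were above every 2c embryo of their genotype. The log2 change was -4.08 (SE 0.55) in WT and -4.43 (SE 0.57) in KO.

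Nlrp2 had 1.19 to 10.9 counts per 1000 spike-in counts in WT oocytes (median 2.71) and 0 to 0.478 at 2c (median 0.120). In KO it had 1.77 to 37.1 (median 4.32) and then 0 to 0.735 (median 0.258). The stages did not overlap, and the log2 change was -4.17 (SE 0.56) in WT and -4.20 (SE 0.54) in KO.

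Zbed3, the most counted member, went from 123 to 1821 counts per 1000 spike-in counts (median 230) to 8.45 to 82.6 (median 23.2) in WT. In KO it went from 172 to 1615 (median 301) to 20.7 to 226 (median 71.4). The stages were apart in WT and overlapped in KO. The log2 change was -3.58 (SE 0.59) in WT and -2.53 (SE 0.57) in KO, and on TMM scaling the KO value was -0.72 and no longer called (edgeR adjusted p = 0.162).

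Khdc3 was near the limit of detection at both stages. It had 100 counts in all 16 WT oocytes together and 7 in all 11 WT 2c embryos, and 163 and 32 counts in KO. Per 1000 spike-in counts it had 0 to 3.33 in WT oocytes (median 0.349), 0 to 0.240 in WT 2c embryos (median 0), 0 to 5.17 in KO oocytes (median 0.804) and 0 to 0.735 in KO 2c embryos (median 0.125). All of these ranges overlapped. The log2 change was -2.92 (SE 0.75) in WT and -1.90 (SE 0.65) in KO, close to that of the median gene in KO. On TMM scaling neither was called (-1.34 and -0.08, edgeR adjusted p = 0.106 and 0.944), and in plate B alone neither was called either (-1.73 and -1.52, edgeR adjusted p = 0.119 and 0.10).

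**Figure D2:**
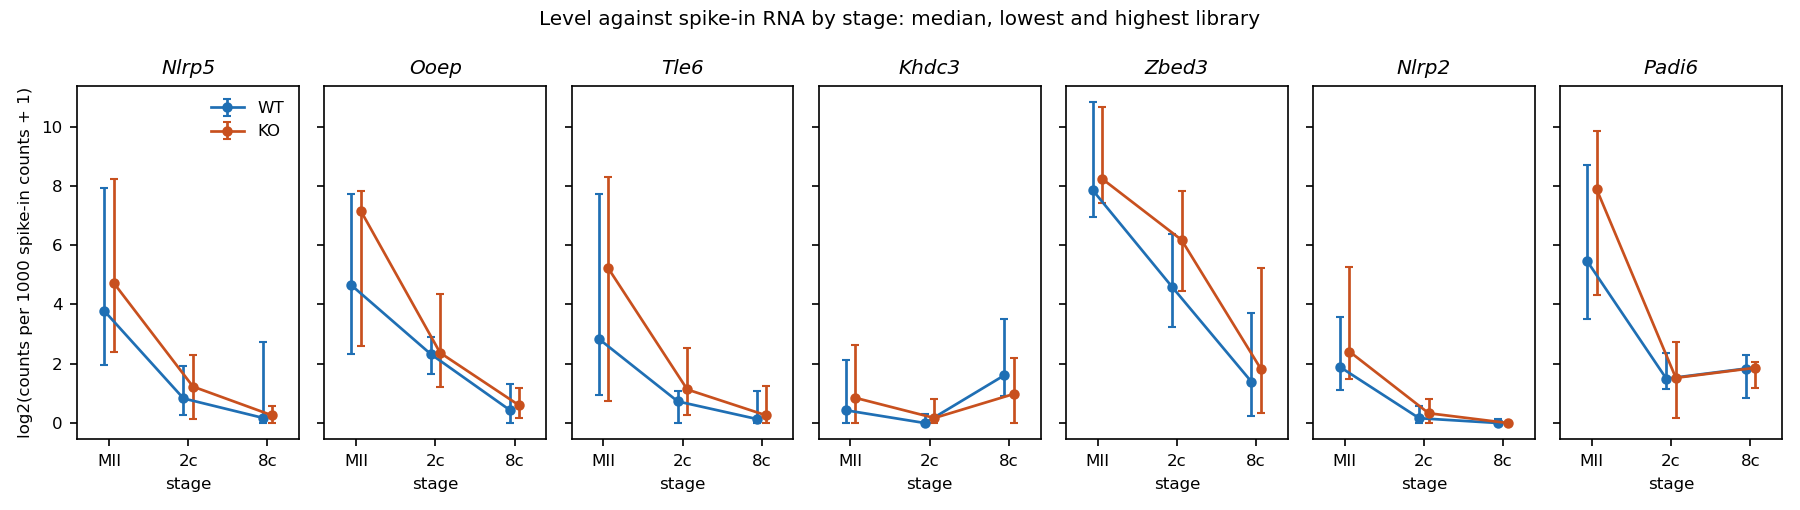
Level of each gene by stage as log2(counts per 1000 spike-in counts + 1), WT in blue and KO in orange. Points are group medians and bars run from the lowest to the highest library. The medians of Nlrp5, Ooep, Tle6, Zbed3 and Nlrp2 go down at each step, Padi6 stays level after 2c, and Khdc3 is higher at 8c than at 2c.

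From 2c to 8c the members parted. In WT 1 member was called higher and 3 lower, where 31.9% of all genes were called higher and 16.2% lower. In KO embryos 1 was higher and 5 were lower, where 29.1% of all genes were called higher and 19.5% lower. A value here is per embryo, so RNA per cell and the number of cells cannot be told apart. The median log2 change of all genes was 0.53 in WT and 0.30 in KO, and on TMM scaling -0.12 and -0.31.

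Khdc3 was the member that rose. In WT it had at most 0.240 counts per 1000 spike-in counts at 2c, with 0 in 6 of 11 embryos, and 0.863 to 10.4 at 8c (median 2.05). All 15 WT 8c embryos were above all 11 WT 2c embryos. In KO the 8c embryos had 0 to 3.62 (median 0.972), and 7 of 11 were above every KO 2c embryo. The log2 change was 5.03 (SE 0.77, edgeR adjusted p = 5.56e-08) in WT and 2.22 (SE 0.67, edgeR adjusted p = 0.00426) in KO. In plate A alone the KO value was 2.42 and not called (edgeR adjusted p = 0.0565).

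Ooep and Zbed3 went on falling. Ooep reached 0 to 1.5 counts per 1000 spike-in counts in WT 8c embryos (median 0.353) and 0.125 to 1.27 in KO (median 0.507), in both genotypes below every 2c embryo. Its log2 change was -2.84 (SE 0.50) in WT and -3.40 (SE 0.58) in KO. Zbed3 reached 0.176 to 12.1 in WT (median 1.64) and 0.278 to 36.2 in KO (median 2.56), and its log2 change was -3.54 (SE 0.54) in WT and -3.41 (SE 0.61) in KO. On this scale the highest 8c embryos overlapped the 2c range in both genotypes, and in CPM no 8c embryo reached the lowest 2c embryo.

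Nlrp2 was the member with the fewest counts at 8c. It had 2 counts in 15 WT embryos, against 19 in 11 WT 2c embryos, and 0 in 11 KO embryos, against 39. Scaled by spike-in counts over the group, the WT level was 15.7-fold lower at 8c (95% counting interval 3.79 to 139). Taking a floor of 3 counts over the group, the KO level was 12.7-fold lower, and its 95% counting interval began at 9.87-fold. Both falls were called, but in plate A alone the WT fall was not (edgeR adjusted p = 0.152).

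Nlrp5 and Tle6 fell in KO and were not called in WT. Nlrp5 had 0 to 5.6 counts per 1000 spike-in counts in WT 8c embryos (median 0.130) and 0 to 0.485 in KO (median 0.196). Both WT embryos of the well F3, which had 113 CPM and 130 CPM, stood far above the other 13 WT embryos, at most 13.6 CPM. The log2 change of Nlrp5 was -0.30 (SE 0.66, edgeR adjusted p = 0.740) in WT and -2.81 (SE 0.81, edgeR adjusted p = 0.00267) in KO. In plate A alone the KO value was -2.43 and not called (edgeR adjusted p = 0.0739).

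Tle6 had 0 to 1.11 counts per 1000 spike-in counts in WT 8c embryos (median 0.0979) and 0 to 1.35 in KO (median 0.194). Its log2 change was -1.20 (SE 0.72, edgeR adjusted p = 0.160) in WT and -2.17 (SE 0.77, edgeR adjusted p = 0.0146) in KO. In plate B alone the KO value was -1.81 and not called (edgeR adjusted p = 0.0846). On TMM scaling Nlrp5 and Tle6 were called lower in WT as well, at -1.41 and -2.16.

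Padi6 was called in neither genotype. It had 0.783 to 3.87 counts per 1000 spike-in counts in WT 8c embryos (median 2.57) and 1.27 to 3.16 in KO (median 2.64). These lay within or near the 2c ranges. Its log2 change was 0.15 (SE 0.43) in WT and 0.15 (SE 0.46) in KO, and -0.76 and -0.54 on TMM scaling, none of them called.

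**Figure D3:**
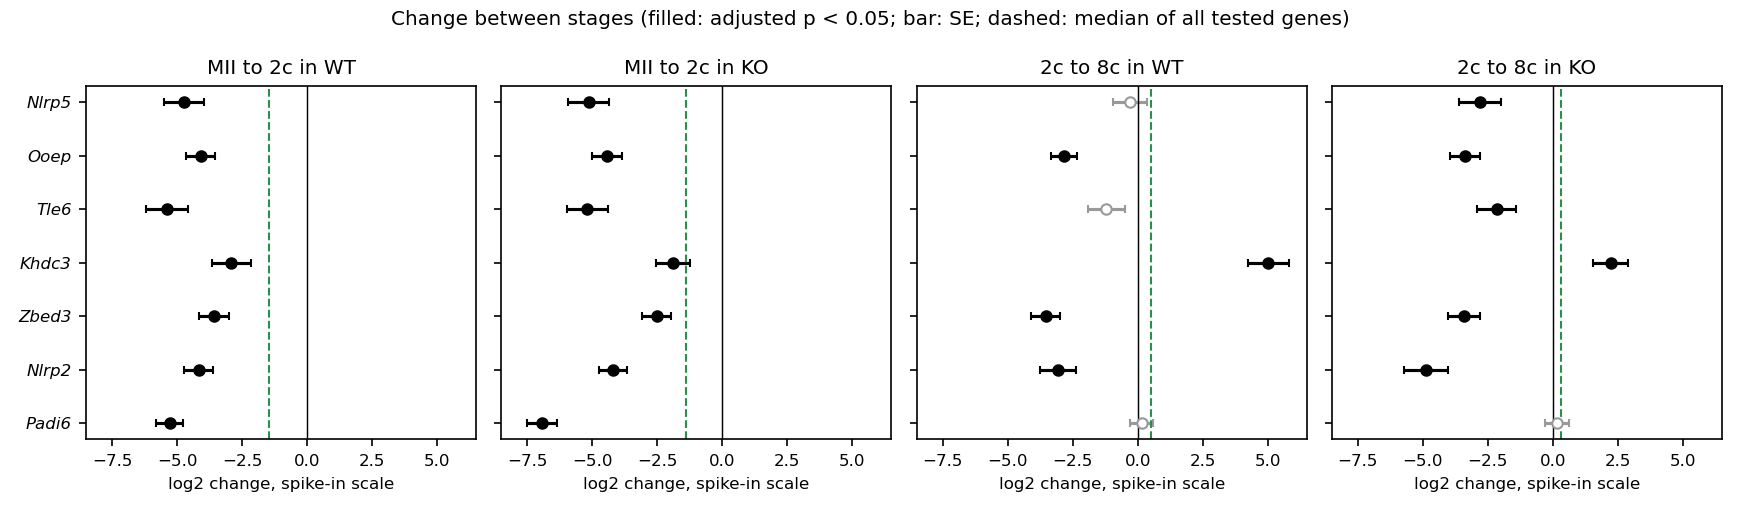
Log2 change of each gene between stages on the spike-in scale, with SE, for MII to 2c and 2c to 8c in each genotype. Filled points have an edgeR adjusted p under 0.05, and the dashed line is the median of all tested genes. In the MII to 2c panels all 7 points lie left of the dashed line, and in the 2c to 8c panels Khdc3 alone is to its right.

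Between the genotypes, 1 member was called in oocytes, 0 at 2c and 1 at 8c. Of all genes tested, 0.781% were called in oocytes, 4.92% at 2c and 1.74% at 8c, in either direction. These comparisons ask whether loss of maternal Plag1 moved the transcripts of the complex, and they used TMM scaling. On spike-in scaling the median of all genes was higher by 0.30 in KO oocytes and by 0.28 in KO 2c embryos.

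Padi6 was the member that differed in oocytes. It had 472 to 2347 CPM in WT (median 1035) and 408 to 15826 CPM in KO (median 2080). The ranges overlapped, and 6 of 14 KO oocytes were above every WT oocyte. Padi6 was higher in KO by 1.58 on the log2 scale (SE 0.30, 2.98-fold, edgeR adjusted p = 0.000551). It was the 1 member called higher, where 0.309% of all genes were called higher.

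The Padi6 difference was called in plate A and not in plate B. In plate A it had 472 to 2347 CPM in WT (median 1175) and 1393 to 15826 CPM in KO (median 4655). In plate B it had 520 to 2243 CPM in WT (median 879) and 408 to 2404 CPM in KO (median 1397). Fitted in each plate alone, the log2 difference was 2.15 (edgeR adjusted p = 0.00157) in plate A and 0.35 (edgeR adjusted p = 0.694) in plate B. The highest KO oocyte, replicate 5, had 15826 CPM of Padi6 and also the highest Nlrp5, 5127 CPM. Without it the Padi6 difference was 1.13 (edgeR adjusted p = 0.0251).

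Genotype was not spread evenly over the wells of the plates. WT oocytes were in row A of plate A and row B of plate B, and KO oocytes in the opposite rows. Within a plate, genotype and row were the same split. Over both plates genotype was the same as the combination of plate and row. An effect of position and one of genotype therefore cannot be told apart in oocytes, in the plates alone or with the well as a block. In 14 wells a kept WT oocyte in one plate faced a kept KO oocyte in the other. Padi6 was higher in the KO oocyte in 7 of 7 wells where that oocyte was in plate A, and in 4 of 7 where it was in plate B. With the well as a block and plate as a term, Padi6 was higher in KO by 1.04 on the log2 scale in edgeR and by 1.04 in limma (SE 0.11, limma adjusted p = 0.000501). In the blocked edgeR fit the prior degrees of freedom were estimated as infinite, so that each gene took the spread of the trend in place of its own. Its p-values therefore do not measure the spread of a gene between wells and are not given. In the blocked limma fit, added after the data were seen, each gene kept mainly its own spread (12 residual and 1.03 prior degrees of freedom), and Padi6 was the 1 member called.

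Tle6 and Ooep were counted more in plate A. Tle6 had 40.2 to 1026 CPM in WT oocytes (median 161) and 14.9 to 3442 CPM in KO (median 440). Ooep had 132 to 3778 CPM in WT (median 639) and 114 to 3018 CPM in KO (median 1816). For each of the 2 genes the plate A oocyte was the higher in 14 of 14 wells, so the KO oocyte was higher in 7 of 7 wells in one row and in 0 of 7 in the other. Median Ooep was 1762 CPM in WT and 2422 CPM in KO in plate A, and 188 and 817 CPM in plate B.

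The log2 difference of Tle6 was 1.42 (SE 0.43, edgeR adjusted p = 0.105), not called. It was called with plate as a term (1.51, edgeR adjusted p = 0.0437) and in plate B alone (1.81, edgeR adjusted p = 0.0340). Over all genes, plate as a term gave 121 calls. Plate B alone gave 463 among 15161 genes, 367 of them higher in KO. With the well as a block the Tle6 difference was 1.17 in edgeR, and 1.03 and not called in limma (SE 0.28, limma adjusted p = 0.0911). That of Ooep was 0.62 (SE 0.36, edgeR adjusted p = 0.603), not called, and it was called in plate B alone (1.56, edgeR adjusted p = 0.0361). With the well as a block it was 1.11 in edgeR, and 1.05 and not called in limma (SE 0.30, limma adjusted p = 0.106).

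The summed level of the oocyte markers had its lowest median in the WT oocytes of plate B. It had a median of 28353 CPM in WT oocytes of plate A, 9186 CPM in WT of plate B, 25775 CPM in KO of plate A and 24658 CPM in KO of plate B. The 8 WT oocytes of plate B lay between 7487 and 10522 CPM. The lowest WT oocyte of plate A had 6664 CPM and the lowest KO oocyte of plate B 6297 CPM, so these ranges overlapped. The median gene count of the WT oocytes of plate B was 318785, against 616399 to 742444 in the other 3 sets. Ooep, Tle6 and Padi6 also had their lowest medians in these oocytes, and their highest in KO of plate A. The part of marker level and depth in the values of the members was not tested.

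**Figure D4:**
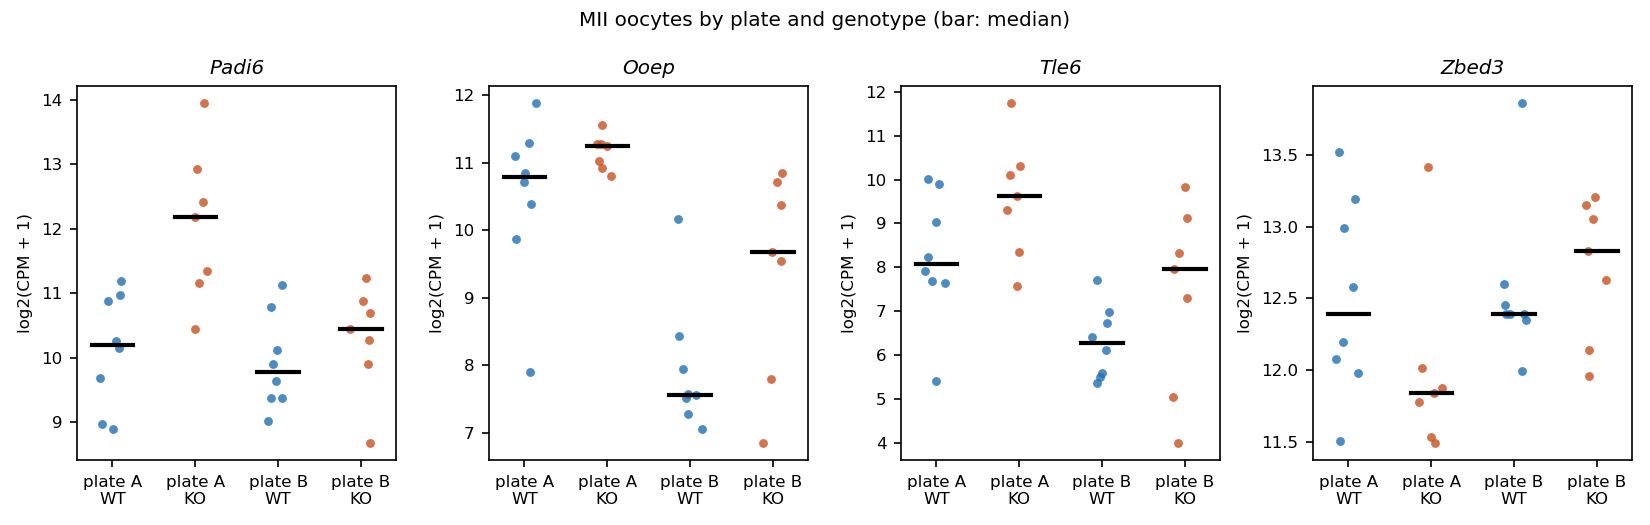
Level of Padi6, Ooep, Tle6 and Zbed3 in single MII oocytes as log2(CPM + 1), by plate and genotype (each panel has its own axis range). Points are oocytes and bars are medians. In plate A the 7 KO oocytes have 1393 CPM or more of Padi6, and 7 of the 8 WT oocytes of plate B have 343 CPM or less of Ooep.

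The other 4 genes showed no called difference in oocytes. Nlrp5 had 75.4 to 1092 CPM in WT and 93.5 to 5127 CPM in KO, with a log2 difference of 1.13 (SE 0.46, edgeR adjusted p = 0.311) that was 0.26 without KO replicate 5. With the well as a block it was 0.65 in edgeR, and 0.63 and not called in limma (limma adjusted p = 0.151). Khdc3 had 0 to 32.8 CPM in WT and 0 to 52.0 CPM in KO (log2 difference 0.59, SE 0.46). Zbed3 had 2909 to 14880 CPM in WT and 2882 to 10943 CPM in KO (log2 difference -0.16, SE 0.39), and 0.26 on spike-in scaling. Nlrp2 had 28.8 to 201 CPM in WT and 35.8 to 367 CPM in KO (log2 difference 0.31, SE 0.34), and -0.79 in plate B alone.

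At 2c none of the 7 genes was called, and the ranges of the genotypes overlapped for each. DESeq2 called 0 of the 7 as well. In edgeR Khdc3 and Zbed3 were at an unadjusted p under 0.05, where 3380 of all 16511 genes were. Khdc3 had 0 to 8.96 CPM in WT (median 0) and 0 to 29.2 CPM in KO (median 7.97), from 7 counts in WT and 32 in KO. Its log2 difference was 1.85 (SE 0.77, edgeR adjusted p = 0.137).

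Zbed3 had 428 to 4005 CPM in WT 2c embryos (median 1098) and 1292 to 8673 CPM in KO (median 2943). Its log2 difference was 1.02 (SE 0.46, edgeR adjusted p = 0.174), and with only the 2c groups in the fit it was 1.08 and called (edgeR adjusted p = 0.0143), in a fit that gave 225.5 prior degrees of freedom to the trend against 20 residual ones. Tle6 had 0 to 63.2 CPM in WT (median 34.7) and 10.9 to 175 CPM in KO (median 55.8), with a log2 difference of 1.15 (SE 0.58, edgeR adjusted p = 0.245). Higher medians in KO were found for these 3 genes and also for Nlrp5, Ooep and Nlrp2, without passing the test over all genes. The median log2 difference of all genes was 0.12.

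Ooep had 103 to 396 CPM in WT 2c embryos (median 202) and 70.9 to 706 CPM in KO (median 214). Padi6, which had differed in oocytes, had 67.5 to 172 CPM in WT (median 92.0) and 7.97 to 214 CPM in KO (median 83.2). Their log2 differences were 0.27 (SE 0.44) and -0.16 (SE 0.37), both smaller than their errors. Nlrp5 had 10.4 to 161 CPM in WT (median 39.4) and 6.69 to 150 CPM in KO (median 60.0). Its log2 difference was 0.29 (SE 0.60), and -0.76 in plate A alone. Nlrp2 had 0 to 27.7 CPM in WT (median 6.26) and 0 to 29.2 CPM in KO (median 12.2), with a log2 difference of 0.67 (SE 0.55).

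At 8c Zbed3 was the member called higher, where 1.21% of all genes were called higher. It had 4.76 to 262 CPM in WT (median 50.3) and 8.61 to 959 CPM in KO (median 48.7). The medians were close, and 2 KO embryos lay beyond the WT range, replicates 5 (553 CPM) and 12 (959 CPM), which were in the same well, F5, of plates A and B. The log2 difference was 1.5 (SE 0.43, 2.82-fold, edgeR adjusted p = 0.0470). The call was lost without either of them, and also without some of the other 8c libraries. Without replicate 12 it was 0.85 (edgeR adjusted p = 0.352), and without replicate 5 it was 1.23 (edgeR adjusted p = 0.123). In plate A alone it was 1.19 (edgeR adjusted p = 0.561), and in plate B alone 1.73 (edgeR adjusted p = 0.147). Embryos in the same well of the plates shared a genotype and varied together. With the libraries of each well summed (8 WT and 6 KO wells), a fit added after the data were seen, the difference was 1.37 (SE 0.53, edgeR adjusted p = 0.342) and not called.

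Khdc3 at 8c had 22.0 to 259 CPM in WT (median 54.5) and 0 to 76.0 CPM in KO (median 30.1). Its log2 difference was -1.0 (SE 0.47, edgeR adjusted p = 0.315), and 5 of 11 KO embryos lay under every WT embryo on the spike-in scale. Nlrp5 had a log2 difference of -1.72 (SE 0.68, edgeR adjusted p = 0.199), with medians of 4.19 CPM in WT and 5.04 CPM in KO, the WT embryos of well F3 named above being the highest, and without WT replicate 6 it was -1.02 (edgeR adjusted p = 0.555). Ooep had medians of 8.38 CPM in WT and 12.2 CPM in KO (log2 difference 0.03, SE 0.50). Tle6 had 2.77 and 6.96 CPM (0.40, SE 0.64) and Padi6 56.7 and 80.0 CPM (0.06, SE 0.34). Nlrp2 had 2 counts in WT and 0 in KO, too few for a fold.

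**Figure D5:**
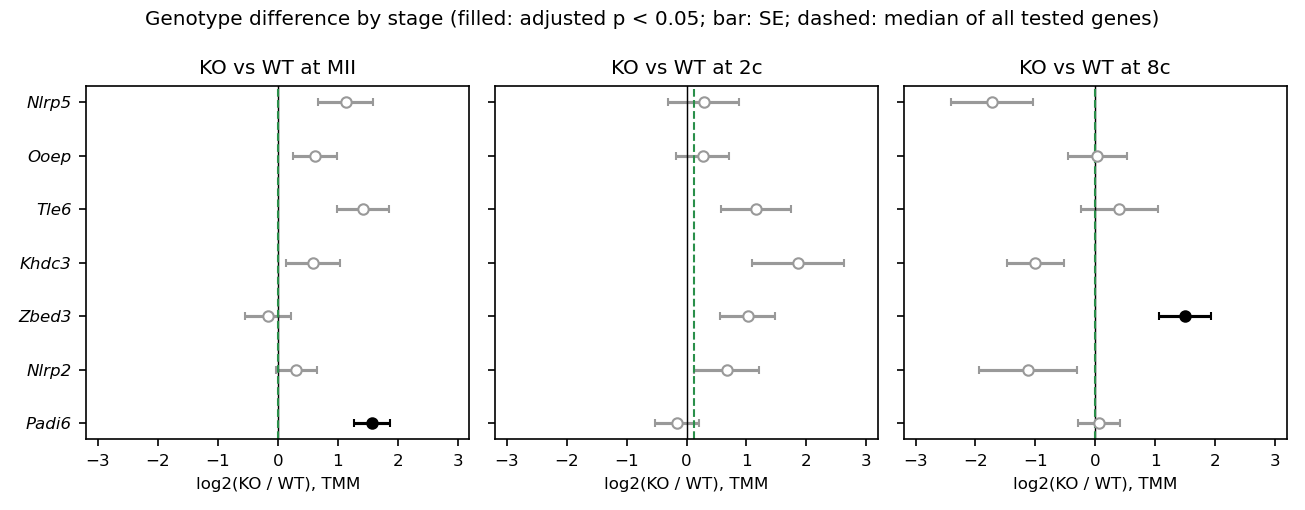
Log2 difference between KO and WT for each gene at MII, 2c and 8c, with SE, on TMM scaling. Filled points have an edgeR adjusted p under 0.05, and the dashed line is the median of all tested genes. Padi6 at MII and Zbed3 at 8c are the filled points.

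Whether the change between stages itself differed with genotype was tested by the interaction. From MII to 2c, 1 of the 7 members was called, where 3.31% of all genes were called. Padi6 fell more in KO, by 1.74 on the log2 scale (difference -1.74, SE 0.48, edgeR adjusted p = 0.0262). Without KO oocyte replicate 5 the difference was -1.29 (edgeR adjusted p = 0.0910), and within plates it was -2.52 in plate A (edgeR adjusted p = 0.108) and -0.46 in plate B (edgeR adjusted p = 0.747). It shares its KO and WT oocytes with the oocyte comparison, where Padi6 started higher in KO.

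From 2c to 8c, 0 of the 7 members were called, where 2.3% of all genes were called. At an unadjusted p under 0.05 were Khdc3 and Nlrp5, 2 of the 7, where 2958 of all 16511 genes were. The difference for Khdc3 was -2.85 on the log2 scale (SE 0.90, edgeR adjusted p = 0.0663), and in DESeq2 it was called (-3.12, DESeq2 adjusted p = 0.0233). The difference for Nlrp5 was -2.01 (SE 0.91, edgeR adjusted p = 0.213), and that for Tle6 was -0.75 (SE 0.89, edgeR adjusted p = 0.723).

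Of 15 partners of the complex and of the cytoplasmic lattices, 14 were in the table and tested. From MII to 2c, 13 of the 14 fell in each genotype, where 51.3% of all genes were called lower in WT and 50.3% in KO, with a median log2 change of -3.01 in WT and -3.14 in KO. Npm2, a histone chaperone of the egg nucleus and the most counted of them, went from a median of 1537 CPM in WT oocytes to 497 CPM at 2c and 37.1 CPM at 8c. Ywhae, a 14-3-3 protein, fell from a median of 566 to 304 CPM in WT and reached 815 CPM at 8c, against 653, 434 and 648 CPM in KO. It was the 1 partner whose change from 2c to 8c was called different between the genotypes (KO minus WT -1.32, SE 0.39, edgeR adjusted p = 0.0483). Of all genes, 2.3% were called there.

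Between 2c and 8c, 4 partners were called higher and 4 lower in WT, against 3 and 5 in KO, where the shares of all genes were those given above for the members. Between genotypes 1 partner was called in oocytes, where 0.781% of all genes were called. It was Nlrp14, a maternal NOD-like receptor of the same family as NLRP5. Nlrp14 was higher in KO (log2 difference 1.53, SE 0.35, edgeR adjusted p = 0.00762), with a median of 153 CPM in WT and 352 CPM in KO. Its values by plate and well were not examined. At 2c 1 partner was called, where 4.92% of all genes were. Uhrf1, a partner of the methyltransferase DNMT1, was higher in KO (1.32, SE 0.40, edgeR adjusted p = 0.0389), with medians of 50.1 and 120 CPM. Both were named after their values were seen.

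Of 20 other maternal-effect genes, 19 were in the table and tested. From MII to 2c, 12 fell in WT and 12 in KO, and 1 rose in WT, beside the 51.3% and 50.3% of all genes called lower. None was called between genotypes at any stage. Btg4, an adaptor of deadenylation of stored transcripts, went from 3271 CPM in WT oocytes to 678 CPM at 2c and 9.53 CPM at 8c. Dppa3 (Stella), which protects methylation in the zygote, had 6317, 4761 and 8227 CPM. Btg4 fell at both steps in both genotypes, and Dppa3 fell to 2c and then rose.

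Of 25 family relatives of the members, 23 were in the table and tested. Most fell from MII to 2c, 17 in WT and 16 in KO, with 3 higher in each, beside the same 51.3% and 50.3%. Between genotypes 0 were called in oocytes, 4 at 2c, where 4.92% of all genes were called, and 1 at 8c, where 1.74% were. Nlrp4a, an oocyte NOD-like receptor, was higher in KO by 2.20 (SE 0.48, edgeR adjusted p = 0.00273), with a median of 6.93 CPM in WT and 45.9 CPM in KO. Khdc1b, a KH-domain gene of the egg, was higher by 0.87 (SE 0.26, edgeR adjusted p = 0.0326), with 738 and 1116 CPM.

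Dppa5a, a KH-domain gene of the early embryo, was lower in KO at 2c by 1.72 on the log2 scale (difference -1.72, SE 0.36, edgeR adjusted p = 0.00188). It had 172 to 2178 CPM in WT (median 999) and 146 to 1118 CPM in KO (median 290). Like Khdc3 it rose towards 8c, from a median of 10.7 CPM in WT oocytes to 6204 CPM in WT 8c embryos. Padi2, another peptidylarginine deiminase, was called higher in KO at 2c, from 0 in all 11 WT embryos to a median of 8.12 CPM in KO, and was named after its values were seen. Nlrp4e, another oocyte NOD-like receptor and also named after its values were seen, was the relative called at 8c (higher in KO by 2.43, SE 0.67, edgeR adjusted p = 0.0386). Its median there was 0 in both genotypes, with 0 counts in 9 of 15 WT and 6 of 11 KO embryos and at most 9.92 CPM in WT and 76.0 CPM in KO.

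The genes whose course was most like the mean course of the 7 members (Pearson r of log2(CPM + 1) over 78 libraries, among 8612 genes) were Tsc22d1 (0.93), Glrx (0.93), H1foo (0.93), Gm15441 (0.92) and Bpgm (0.92). H1foo is the linker histone of the oocyte. The libraries share stage, depth and plate, so this is a description. Among the members Nlrp5 followed the mean most closely (0.91), and Khdc3 went the other way (-0.28).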

How the data were processed

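Oocytes and embryos were sequenced one per library from transcript 5′ ends with molecular identifiers, in 2 pools called plates A and B. The counts are raw, as the authors deposited them, per gene and per spike-in RNA in 90 libraries. Reads had been placed on mm9 and counted with HOMER, with versions not given in the sources used here. The members and gene lists were chosen with earlier results of these data known.

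The 12 libraries with a median CPM under 1 were left out, which kept 78. A gene needed 1 CPM or more in 5 or more of them, which 16511 genes had. All 6 groups were fitted together with edgeR 4.0.16 (quasi-likelihood, R 4.3.3, limma 3.58.1), and a call needed a Benjamini-Hochberg adjusted p under 0.05 over all those genes. Genotype comparisons and interactions used TMM factors. Between stages the sum of spike-in counts stood in for library size, following the study's methods. From each gene list at most the 4 genes with the highest mean CPM are named, and genes named beyond that rule are marked as such. No pair of libraries in a group was close enough in counts to be 1 library deposited again (lowest chi-square per degree of freedom 3.54). Since no donor female is named per library, p-values measure the spread between these libraries.

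The median total of gene counts per library was 395023 for WT oocytes, 649899 for KO oocytes, 148473 for WT 2c, 163626 for KO 2c, 564009 for WT 8c and 393914 for KO 8c. Exact counting intervals (95%) and the floor of 3 counts cover counting error only. In simulated data with 100 genes changed 8-fold, the fit recovered 94 between oocytes, 86 between 2c embryos, 89 between 8c embryos and 95 from MII to 2c in WT. Of 100 changed 3-fold it recovered 76, 32, 44 and 34. Of the unchanged genes it called 35, 17, 23 and 18 in the same order. The simulated libraries were independent, with no effect of plate, well or donor, unlike the data, so these counts do not cover such effects. The changed genes were drawn from the more counted ones. Recovery was not split by gene level, so it does not give the power for members with few counts.

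Pairing of wells between plates was checked over 8418 genes. In oocytes 14 wells held opposite genotypes in the plates. Deviations from the mean of the group within its plate correlated above 0.1 in 14 of 14 wells (lowest 0.148). Deviations from the mean of the whole group did so in 12 of 14 (lowest -0.06). The blocked fit holds plate as a term, so the oocyte wells were taken to pair. At 2c, 5 of 8 pairs correlated above 0.1 (lowest 0.02, median 0.161), and 2 of the 8 held opposite genotypes. No block was used there. Libraries of a well were thus taken as independent at 2c although many varied together, and p-values that use 2c libraries carry this limit. The 12 pairs of 8c embryos shared a genotype, which a block cannot compare, and correlated above 0.1 in 12 of 12 (lowest 0.104), so libraries of a well were not independent and were also summed.

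Alternatives were the other scaling, all libraries kept, no filter on low counts, plate as a term, each plate alone, only the groups compared, DESeq2 1.42.0 and the well block. The well block in limma, the sum of the 8c libraries of a well, and leaving out each kept oocyte and 8c library in turn were added after the data were seen. Promoter windows and gene locations were read from the mm9 genome with its GENCODE annotation.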

Additional observations from a re-analysis of the deposited data

Results flagged for a closer look

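The change of Padi6 from MII to 2c differed between the genotypes by the test of the interaction (log2 difference KO minus WT -1.74, SE 0.48, edgeR adjusted p = 0.0262). Padi6 changed by -5.28 in WT and by -6.92 in KO on the spike-in scale. The 5 KO oocytes with the highest Padi6 CPM were in plate A. Fits within each plate gave -2.52 in plate A and -0.46 in plate B, neither called (edgeR adjusted p = 0.108 and 0.747), and without KO oocyte replicate 5 the value was -1.29 and was not called (edgeR adjusted p = 0.0910).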

How the results depend on the processing

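In oocytes 1 member was called, Padi6, and 2 with plate as a term (with Tle6), where 121 of all genes were called against 129. Plate B alone called 2 (Tle6 and Ooep, without Padi6), where 463 of 15161 genes were called, 367 of them higher in KO. The replicate block of wells and plate in edgeR called 4 (Padi6, Ooep, Tle6 and Nlrp5) and 809 over all genes. Its prior degrees of freedom were infinite, so its calls do not measure the spread of a gene between wells. In limma, added after the data were seen, the block of wells gave 1 member, Padi6, and 245 calls over all genes. At 2c, 1 was called with only the groups compared (Zbed3), where 1034 of all genes were called against 812. At 8c, 0 were called with all libraries kept, only the groups compared, the other scaling, or plate A or plate B alone, and 0 with the 8c libraries of a well summed (added after the data were seen, 26 calls over all genes against 287), where Ooep was -0.0092. For the MII to 2c difference, 0 were called in the first 5 of these fits. For the 2c to 8c difference 1, Khdc3, was called with all libraries kept, in DESeq2 and with only the groups compared. Over all genes those fits gave 388, 654 and 646 calls, against 380. The cause was not tested.

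Signs of uncalled values turned as follows. On the other scaling Zbed3 at MII was 0.26, Padi6 0.0075 at 2c, -0.76 from 2c to 8c in WT and -0.54 in KO, Ooep -0.048 at 8c, and the differences of change were 0.18 for Tle6 and -0.032 for Nlrp2 (MII to 2c) and -0.0017 for Padi6 (2c to 8c). In plate A alone Nlrp5 was -0.76 at 2c, Ooep -0.19, Tle6 -0.32 and Padi6 -0.23 at 8c, and the MII to 2c difference of Nlrp2 -0.0056. In plate B alone Zbed3 was 0.077 and Nlrp2 -0.79 at MII, Nlrp5 0.010 and Padi6 -0.0043 from 2c to 8c in WT, the MII to 2c difference of Nlrp5 0.43 and the 2c to 8c difference of Ooep 0.062. With all libraries kept the latter was 0.15, and in DESeq2 Nlrp2 at 8c was 0.019.

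With each library left out in turn (30 oocytes, 26 8c embryos), the members called ranged from 1 to 2 at MII, 0 to 1 at 8c and 0 to 1 for the MII to 2c difference. Padi6 at MII stayed called in 30 of 30 (1.13 to 1.69). Tle6 at MII was called without KO replicate 10 or without WT replicate 4 or 5. Zbed3 at 8c was called in 11 of 26 (0.85 to 1.79). The call was lost without any of KO replicates 5, 7, 12 and 14 and WT replicates 1, 2, 4, 5, 7, 8, 9, 11, 12, 13 and 15. Nlrp2 at MII ranged from -0.13 to 0.52, Ooep at 8c from -0.23 to 0.22 and Padi6 at 8c from -0.0050 to 0.13. The MII to 2c differences ranged from -1.09 to 0.025 for Nlrp5, from -0.58 to 0.23 for Tle6 and from -1.86 to -1.29 for Padi6.

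Khdc3 and Nlrp2 at 2c and Nlrp2, Nlrp5 and Tle6 at 8c were at 0 in some libraries. Differences between genotypes there were limited by low counts, and low level and depth were not told apart.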
